A study of Mus musculus with 5 samples.

Results

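The nuclear genes for subunits of the mitochondrial respiratory chain and ATP synthase were followed across 5 anti-Staufen1 immunoprecipitates of mouse skeletal muscle stem cells, the precursors that repair muscle. Members were the rows of the count table whose symbol is Nduf with a letter (a, b, c, s or v) and a number and nothing more, is Sdha, Sdhb, Sdhc or Sdhd, or begins with Uqcr, Cox (4 to 8) or Atp5, and that lie off the mitochondrial chromosome. They came to 81 of 11194 rows, with 80 distinct symbols: 37 rows of complex I, 4 of complex II, 8 of complex III, 15 of complex IV and 17 of complex V. 3 libraries carried the genotype label Stau+/+ (wild type) and 2 carried Stau-/- (Staufen knockout). All 5 were precipitated with the same rabbit antibody to Staufen1, a protein that binds double-stranded RNA, so the libraries labelled knockout serve as the background of the precipitation as far as the label holds; the protein was not measured here. No input RNA was used here, so how much of an RNA the cells held and how well it was recovered enter each count together. In such bulk samples fewer cells of a type and less RNA per cell cannot be told apart. The labels give no age, no sex, no design of the knockout allele and no statement on whether libraries came from separate animals or pools, so p-values rest on the spread among these libraries alone, and that spread may be technical.

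Oxidative phosphorylation passes electrons from NADH (complex I) and succinate (complex II) through complex III to oxygen at complex IV, and complex V uses the resulting proton gradient to make ATP. Complexes I, III, IV and V are built from subunits of both genomes, whereas complex II is wholly nuclear. Quiescent muscle stem cells are known for low mitochondrial content and low respiration. The comparison asked whether the transcripts of these subunits are recovered with Staufen1 above the knockout background.

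Libraries held from 3091302 counts (knockout 2) to 105473455 counts (wild type 1), and both knockout libraries were shallower than all 3 of the wild type, so depth and genotype cannot be told apart. All 12 muscle stem cell markers were measured, none at 0, with a summed level of 6961, 6336 and 6539.9 CPM in wild type 1 to 3 and 3977 and 4267 CPM in knockout 1 and 2 and 3 called higher in wild type by edgeR. Pax7, which defines these cells, had 211, 263 and 241 against 252 and 181 CPM, where CPM is the count per 1000000 on library sizes scaled by TMM. Stau1, the targeted gene, had 104, 127 and 118 against 109 and 111 CPM; its RNA did not separate the libraries by label, and all directions below rest on the labels. Over the members, libraries of the same genotype differed beyond sampling noise (chi-square per degree of freedom of at least 8.72). Of 20 endothelial markers, none at 0, 7 were called higher in knockout by edgeR, and their sum was 2591, 1870.0 and 2193 CPM in wild type 1 to 3 and 4179.6 and 3896 CPM in knockout 1 and 2. Of 5 measured red blood cell markers, none at 0, 3 were called higher in knockout by edgeR, with a sum of 301, 221 and 255 CPM in wild type 1 to 3 and 482 and 825 CPM in knockout 1 and 2. Of 14 fibro-adipogenic progenitor markers, none at 0, edgeR called 2 toward wild type and 1 toward knockout, and their sum was 6861, 4515 and 6039 CPM in wild type 1 to 3 and 3867 and 3951 CPM in knockout 1 and 2. By edgeR, 25% of stem cell markers were called toward wild type, and 35% of endothelial and 60% of red blood cell markers toward knockout. For fibro-adipogenic markers the shares were 14.3% and 7.14%, and over all genes 1.05% and 1.00%. DESeq2 called 6 stem cell, 13 endothelial and 4 red blood cell markers in those directions, and the voom method of limma 0, 1 and 0. For fibro-adipogenic markers they called 4 and 1, and 1 and 0. Of 13 measured macrophage markers, none at 0, edgeR called 0, DESeq2 called 1 higher in wild type, and 1 had an unadjusted p under 0.05, toward wild type. The part of these cells in the values of the members was not tested. The lowest count of any member was 284, 116 and 128 in wild type 1 to 3, and 42 and 7 in knockout 1 and 2.

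None of the 81 members passed the test. In edgeR's quasi-likelihood test at an adjusted p under 0.05, 0 members were higher in wild type, where 1.05% of all genes were, and 0 were higher in knockout, where 1.00% of all genes were. At an unadjusted p under 0.05, 5 members were higher in wild type and 14 in knockout. These are 6.17% and 17.3% of the members, against 10.4% and 9.99% of all genes. Without knockout 2 the counts were 4 and 2, and they ran from 2 to 7 and from 2 to 15 over all libraries left out in turn. DESeq2, another count test with its own size factors, called 1 member toward wild type, Atp5b, and 5 toward knockout, Ndufa2, Cox5b, Cox4i2 and Atp5j among them. Of all 11194 genes DESeq2 called 433 toward wild type and 457 toward knockout. The voom method of limma called 0 members, and 8 and 14 of all genes.

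The members leaned to the knockout side, with no call by edgeR. The log2 fold change, given throughout as wild type over knockout, was below 0 for 56 of 81 members (69.1%) and for 49.7% of all genes. Its median was -0.18 over the members and 0.0032 over all genes. Every knockout library lay above every wild type library for 28 members (34.6%, against 18.1% of all genes), and every wild type library lay above every knockout library for 10 (12.3%, against 20.4%). Knockout 2, the shallowest library, was the highest of the 5 for 49 members (60.5%, against 26.5% of all genes). Leaving out knockout 2 gave a median of -0.084, and leaving out knockout 1 gave -0.30, so the size of the lean depended on which knockout library was used.

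**Figure D1:**
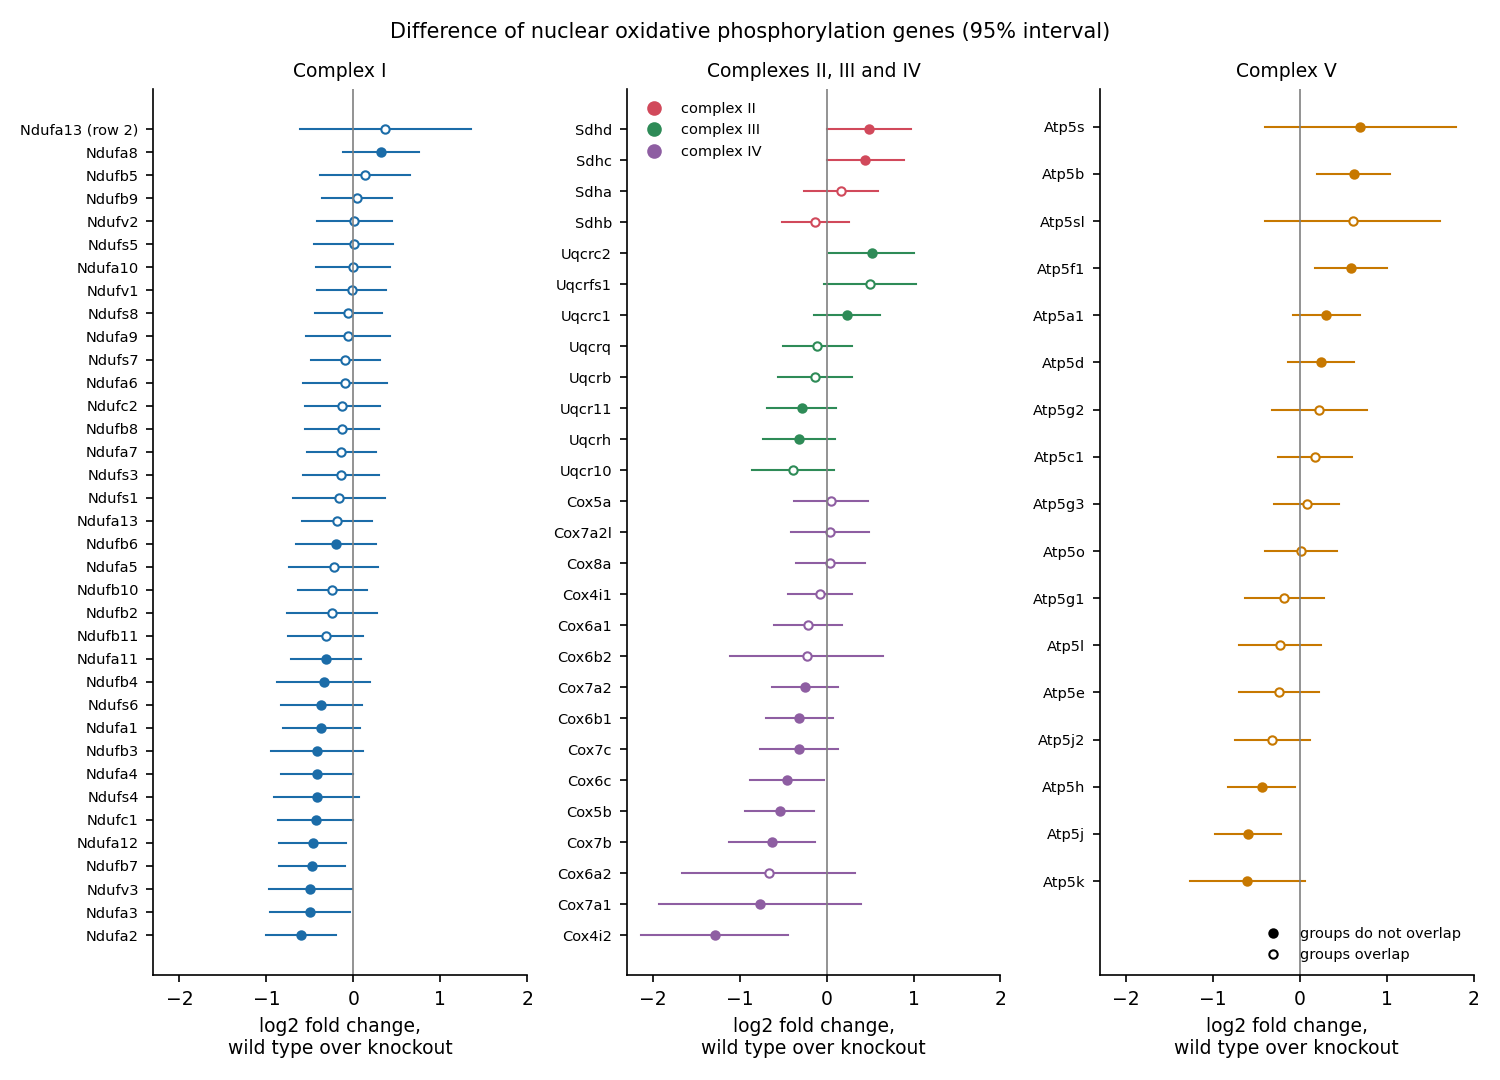
Log2 fold change (wild type over knockout, x axis) of 80 member rows, with their 95% intervals from the edgeR fit; filled points mark members whose libraries do not overlap between groups, and open points those whose libraries do. Most points of complexes I and IV lie left of 0, complex V spreads to both sides, and the widest intervals belong to rare transcripts such as Atp5s and Cox7a1.

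The complexes differed in where their members lay. The median log2 fold change was -0.20 for complex I, 0.31 for complex II, -0.12 for complex III, -0.31 for complex IV and 0.078 for complex V. In complex I, 31 of 37 rows were below 0, and in complex IV 12 of 15 were. In complex II 1 of 4 was below 0, in complex III 5 of 8, and in complex V 7 of 17. These medians describe the lists and were not tested against each other. Per library, the median log2 level of complex I, each gene centred on its own mean, was -0.12, -0.068 and -0.11 in wild type 1 to 3 and 0.071 and 0.25 in knockout 1 and 2. That of complex IV was -0.11, -0.022 and -0.23 against 0.044 and 0.30. Both complexes thus had groups that did not overlap, with knockout 2 above knockout 1. The groups overlapped for complex V, at -0.024, 0.041 and 0.067 against 0.012 and -0.012.

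**Figure D2:**
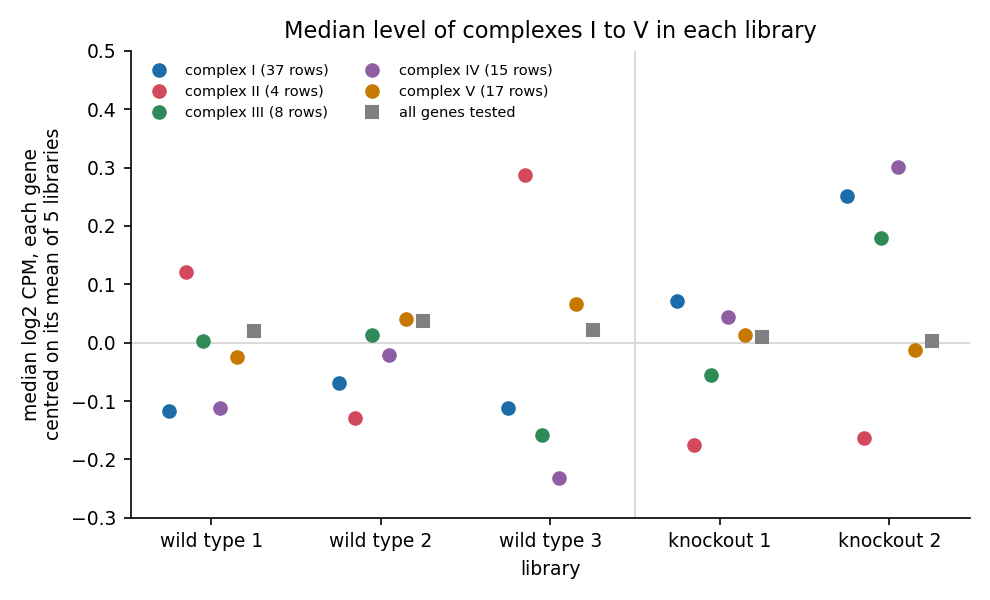
Median log2 CPM of each complex in each library, after centring each gene on its mean of the 5 libraries; points of 1 library are set side by side, and grey squares give all genes tested. Complexes I and IV lie below 0 in the 3 wild type libraries and above it in both knockout libraries, most in knockout 2, while complex II lies at 0.29 in wild type 3 and at -0.13 in wild type 2.

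As a share of all counts, the 81 rows took 1.23, 1.19 and 1.28% in wild type 1 to 3 and 1.26 and 1.38% in knockout 1 and 2, and the groups overlapped. Complex I took 0.354, 0.37 and 0.384% in wild type 1 to 3 and 0.425 and 0.472% in knockout 1 and 2, with no overlap between groups. The F1 head of ATP synthase (Atp5a1, Atp5b, Atp5c1, Atp5d and Atp5e) carries out the synthesis of ATP. It took 0.308, 0.254 and 0.328% in wild type 1 to 3 and 0.227 and 0.241% in knockout 1 and 2, again with no overlap but in the other direction. This sum mostly restates its most abundant genes: in wild type 1, Atp5b held 1308 and Atp5a1 1022 of 3145 CPM. Groups overlapped for Atp5c1 (log2 fold change 0.17) and Atp5e (-0.24), and the class was set after the values were seen.

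Complex I oxidises NADH. Its core subunits, which hold the flavin and the iron-sulfur clusters, had a median log2 fold change of -0.091 over 7 genes, and its accessory subunits -0.24 over 29 rows. Ndufv1, the NADH-binding flavoprotein, had groups that overlapped, with 309, 286 and 333 against 275 and 352 CPM and a log2 fold change of -0.017. Groups also overlapped for Ndufs1, the large subunit with iron-sulfur clusters (-0.17), and for Ndufv2, which pairs with Ndufv1 (0.014).

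Among accessory subunits of complex I, 13 of 29 rows (44.8%) had knockout libraries above all wild type libraries, as 18.1% of all genes did, and 1, Ndufa8 (3.45%), had the reverse, as 20.4% of all genes did. The listed length of these rows ran from 419 to 5628 bases, with a median of 1170.0, so they fall in several length classes. Knockout lay above wild type for 35.5% of other genes under 1000 bases. It did so for 20.2% of those from 1000 to 2000 bases and 15.7% of those from 2000 to 4000. Ndufa2, an accessory subunit of the NADH-oxidising arm, had 181, 207 and 167 CPM in wild type 1 to 3 and 247 and 315 CPM in knockout 1 and 2. This gave a log2 fold change of -0.60 (standard error 0.19, 95% interval -1.01 to -0.20, edgeR adjusted p = 0.0976), and part of its span overlaps Tmco6, so reads may be shared. It also had the highest level per length of the complex, a mean of 391 RPKM (CPM per 1000 bases of gene length) over the 5 libraries. Ndufb7, a subunit of the membrane arm with twin cysteine motifs, had 150.0, 145 and 160.3 against 209.9 and 213 CPM, a log2 fold change of -0.48 (standard error 0.18, edgeR adjusted p = 0.149) and groups that did not overlap. Ndufa12 (-0.47), Ndufa3 (-0.50), Ndufv3 (-0.49) and Ndufc1 (-0.43) had unadjusted p under 0.05 as well, and edgeR adjusted p from 0.167 to 0.241. Ndufa8, on the other side, had 73.3, 68.2 and 81.9 against 63.0 and 56.0 CPM and a log2 fold change of 0.32 (standard error 0.20, edgeR adjusted p = 0.409). The other accessory rows apart from Ndufa13 ran from -0.42 (Ndufs4) to 0.14 (Ndufb5). Of these, Ndufs4, Ndufb3, Ndufa1, Ndufs6, Ndufb4, Ndufa11 and Ndufb6 had knockout libraries above wild type. Ndufb2 had the lowest level per length, 6.59 RPKM, over a listed length of 5628 bases that overlaps Braf.

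The symbol Ndufa13, which names a membrane arm subunit also known as GRIM-19, stood on a pair of rows. The abundant row (chr8:69894188-69902558, minus strand, mm10) had 209, 216 and 174 against 208 and 248 CPM and a log2 fold change of -0.19 (standard error 0.19, edgeR adjusted p = 0.615). The other row (chr8:69887788-69902712, minus strand) spans Yjefn3 and Tssk6 as well, and had 11.4, 7.69 and 9.13 against 4.92 and 10.2 CPM. Its reads cannot be assigned to Ndufa13 from the table, and the medians above include it. Ndufa4, first described in complex I and now known as a subunit of complex IV, had 73.0, 66.8 and 67.5 against 90.8 and 93.8 CPM, a log2 fold change of -0.42 (standard error 0.19, edgeR adjusted p = 0.234) and groups that did not overlap.

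Complex II, succinate dehydrogenase, links the tricarboxylic acid cycle to the chain. Its membrane anchors lay on the wild type side. Sdhd (chr9:50596338-50603849, minus strand, mm10) had 82.8, 65.1 and 96.4 CPM in wild type 1 to 3 and 53.6 and 62.7 CPM in knockout 1 and 2, a mean of 81.4 ± 15.7 (SD, n = 3) against 58.1 ± 6.4 CPM (SD, n = 2) and a log2 fold change of 0.49 (standard error 0.22, 95% interval 0.010 to 0.97, edgeR adjusted p = 0.234). Sdhc, the other anchor, had 74.6, 66.4 and 77.0 against 49.5 and 57.6 CPM and a log2 fold change of 0.45 (standard error 0.21, edgeR adjusted p = 0.244). In both genes the groups did not overlap, and wild type 2 and knockout 2 were the nearest libraries between them. The catalytic subunits overlapped between groups. Sdha, the flavoprotein, had 181, 161 and 221 against 181 and 153 CPM (0.17), and Sdhb, the iron-sulfur protein, had 156, 152 and 176 against 172 and 181 CPM (-0.13).

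Complex III, which passes electrons from ubiquinol to cytochrome c, divided by subunit class. The core proteins Uqcrc1 and Uqcrc2 and the Rieske iron-sulfur protein Uqcrfs1 all had positive log2 fold changes, with a median of 0.50, and the small subunits Uqcrb, Uqcrh, Uqcrq, Uqcr10 and Uqcr11 all had negative ones, with a median of -0.28. Uqcrc2 had 75.9, 73.0 and 106 CPM in wild type 1 to 3 and 54.7 and 64.6 CPM in knockout 1 and 2. Wild type 3 stood highest, and the groups did not overlap. Its log2 fold change was 0.52 (standard error 0.23, edgeR adjusted p = 0.217), and it had the lowest level per length of the complex, 29.9 RPKM. The span of Uqcrc2 overlaps Pdzd9. Uqcrfs1 had 102, 72.0 and 95.6 against 49.1 and 79.2 CPM, where knockout 2 exceeded wild type 2, and a log2 fold change of 0.50 (standard error 0.25, edgeR adjusted p = 0.268). Uqcrc1 had 296, 293 and 335 against 254 and 271 CPM (0.23). Uqcr10, the most abundant per length at 223 RPKM, had 125, 128 and 94.3 against 123 and 182 CPM and a log2 fold change of -0.39 (standard error 0.22, edgeR adjusted p = 0.341); knockout 1 lay among the wild type libraries. Cyc1, the cytochrome c1 subunit whose symbol the rule does not reach, had 249, 252 and 281 against 181 and 205 CPM and a log2 fold change of 0.44 (standard error 0.18, edgeR adjusted p = 0.195), on the side of the core proteins. The subunit classes were set after these values were seen.

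Complex IV, cytochrome c oxidase, draws only accessory subunits from the nucleus, since its catalytic centre is mitochondrially encoded. Of the 10 general subunits, 6 had knockout libraries above all wild type libraries (18.1% of all genes) and 0 had the reverse (20.4% of all genes), with a median log2 fold change of -0.28. Their listed length ran from 505 to 3567 bases, with a median of 728, and among other genes under 1000 bases 35.5% had knockout above wild type. Of the 6, Cox7b and Cox7c lie in the class from 1000 to 2000 bases, where 20.2% of other genes did. Cox6c lies in the class from 2000 to 4000 bases, where 15.7% did. Cox5b, a zinc-binding subunit on the matrix side (chr1:36691487-36693385, plus strand, mm10), had 148, 184 and 152 CPM in wild type 1 to 3 and 225 and 244 CPM in knockout 1 and 2. The mean was 161 ± 19.8 (SD, n = 3) against 234 ± 13.2 CPM (SD, n = 2), for a log2 fold change of -0.54 (standard error 0.18, 95% interval -0.93 to -0.15, edgeR adjusted p = 0.121). Cox7b, a small membrane subunit, had 57.4, 72.7 and 61.3 against 75.7 and 122 CPM and a log2 fold change of -0.62 (standard error 0.23, edgeR adjusted p = 0.15), which was -0.94 without knockout 1 and -0.25 without knockout 2. Cox6c had 97.5, 122 and 87.4 against 138 and 142 CPM (-0.45) and overlaps Vps13b. The most abundant subunits overlapped between groups: Cox4i1 had 780.4, 691 and 725 against 801 and 739 CPM (-0.073), Cox8a 395, 391 and 305 against 347 and 359.8 CPM (0.042) and Cox6a1, the highest per length of all members at 809 RPKM, 539, 579 and 483 against 549 and 691 CPM (-0.22). Cox6b1 (-0.31), Cox7c (-0.32), Cox7a2 (-0.25) and Cox5a (0.048) completed the set. Cox7a2l, which assembles supercomplexes, had 63.3, 51.8 and 58.1 against 55.3 and 56.9 CPM (0.042).

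The tissue-restricted forms of complex IV were rare, and Cox4i2 and Cox6a2 were uneven between the knockout libraries. Cox4i2, the form of subunit 4 known from hypoxic cells, lung and vessel walls, had 7.78, 9.06 and 9.62 CPM in wild type 1 to 3 and 12.6 and 31.5 CPM in knockout 1 and 2. Knockout 2 was far above knockout 1. The log2 fold change was -1.29 (standard error 0.39, 95% interval -2.13 to -0.44, edgeR adjusted p = 0.0911), the largest in size of all members. It was -1.84 without knockout 1, with an edgeR adjusted p of 0.0281, and -0.51 without knockout 2, with one of 0.562. Cox4i2 overlaps Bcl2l1. All 10 pericyte and smooth muscle markers were measured and none was at 0. Their summed level was 1649.7, 1382 and 1607 CPM in wild type 1 to 3 and 1699 and 1826 CPM in knockout 1 and 2, and Rgs5 of pericytes had 231, 193 and 213 against 293 and 354 CPM; their part in the Cox4i2 value was not tested. Cox6a2, the heart and skeletal muscle form of subunit 6a, had 8.03, 5.05 and 6.44 against 6.91 and 14.3 CPM (-0.67), and Cox7a1, the muscle form of subunit 7a, had 2.75, 3.53 and 1.8 against 4.4 and 4.77 CPM (-0.77). Of 18 muscle fibre markers 15 were measured, none at 0, and their summed level was 924, 849 and 994 CPM in wild type 1 to 3 and 711 and 3194 CPM in knockout 1 and 2. Casq1 was the 1 fibre marker that edgeR called, higher in knockout (6.67%, against 1.00% of all genes). DESeq2 called 3 and the voom method of limma 0. The part of fibre RNA in the Cox6a2 value was not tested. Cox7a1 rested on 15 counts in knockout 2 and 42 in knockout 1. Cox6b2, the form known from testis, had the lowest level per length of complex IV (8.64 RPKM) and a log2 fold change of -0.23. Ndufa4l2, the hypoxia-induced relative of Ndufa4 whose symbol the rule does not reach, had 44.9, 33.6 and 37.1 against 37.6 and 57.9 CPM (-0.29). Cox7b2, Cox8b and Cox8c were not analysed here.

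Complex V, the ATP synthase, had members on either side. Atp5b, the catalytic beta subunit (chr10:128083273-128090391, plus strand, mm10), had 1308, 931 and 1305 CPM in wild type 1 to 3 and 742 and 794 CPM in knockout 1 and 2. Wild type 2 was the lowest wild type library and still lay above both knockout libraries. The mean was 1181 ± 217 (SD, n = 3) against 768 ± 36.7 CPM (SD, n = 2) and the log2 fold change 0.62 (standard error 0.20, 95% interval 0.20 to 1.04, edgeR adjusted p = 0.0984). It was 0.77 without wild type 2, with an edgeR adjusted p of 0.0334, the only setting of that test in which it passed. Atp5a1, the alpha subunit that forms the head with it, had the highest level per length of the complex (303 RPKM) and 1022, 906 and 1154 against 811 and 854 CPM, with a log2 fold change of 0.30 (standard error 0.18, edgeR adjusted p = 0.368). Atp5d, the delta subunit of the central stalk, had 575, 545 and 542 against 425 and 513 CPM (0.24). All 3 had groups that did not overlap. The span of Atp5a1 overlaps Haus1, and that of Atp5d overlaps Cbarp. Atp5c1, the gamma subunit that turns inside the head, had 168, 147 and 176 against 168 and 121 CPM (0.17), and Atp5e had 72.4, 83.6 and 58.5 against 76.6 and 92.6 CPM (-0.24).

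The peripheral stalk, which holds the head still, was divided. Atp5f1, its b subunit (RefSeq symbol Atp5pb; chr3:105942698-105960099, minus strand), had 185, 149.7 and 192 CPM in wild type 1 to 3 and 118 and 115 CPM in knockout 1 and 2, with a log2 fold change of 0.58 (standard error 0.19, 95% interval 0.17 to 1.00, edgeR adjusted p = 0.11); it overlaps Wdr77. Atp5j, the stalk subunit known as coupling factor F6 (chr16:84827866-84835625, minus strand), had 168, 196 and 177 CPM in wild type 1 to 3 and 267 and 278 CPM in knockout 1 and 2. This gave a log2 fold change of -0.60 (standard error 0.18, 95% interval -0.98 to -0.22, edgeR adjusted p = 0.0831), the smallest p of all members. Part of the span of Atp5j overlaps Gabpa, so reads may be shared. Atp5h, the d subunit, had 206, 250.5 and 229 against 301 and 319 CPM and a log2 fold change of -0.44 (standard error 0.18, edgeR adjusted p = 0.185). In all 3 genes the groups did not overlap. Atp5o, the subunit that joins the stalk to the head, overlapped between groups at 100.3, 109 and 128 against 112 and 111 CPM (0.013), though its listed span overlaps Donson, Cryzl1 and Itsn1. The count ratio of Atp5b to Atp5j was 7.8, 4.76 and 7.36 in wild type 1 to 3 and 2.78 and 2.86 in knockout 1 and 2, and that of Atp5f1 to Atp5h was 0.897, 0.597 and 0.839 in wild type 1 to 3 and 0.394 and 0.362 in knockout 1 and 2. Both ratios were lower in each knockout library than in any wild type library, a direction that the choice of these pairs fixes.

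**Figure D3:**
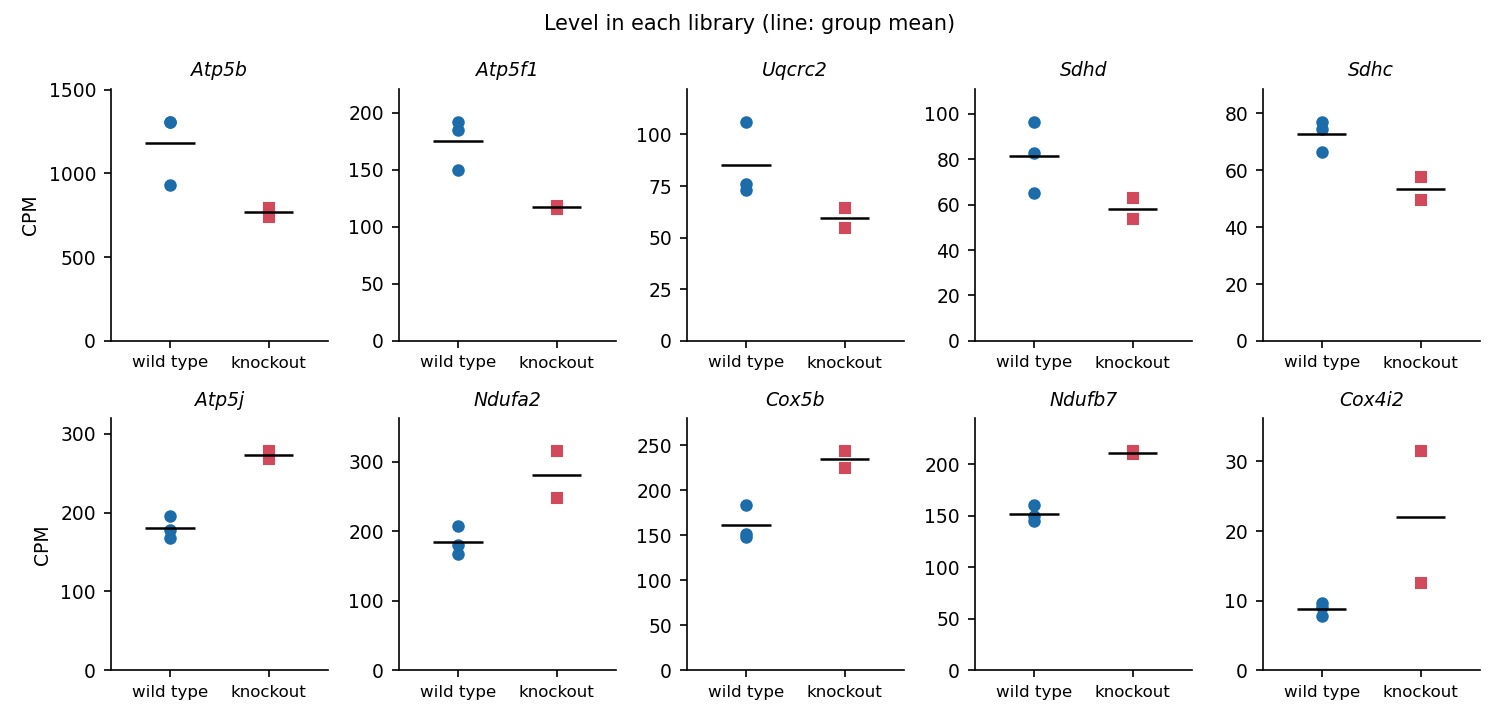
CPM of 10 members in each library (circles, wild type; squares, knockout; line, group mean; axes start at 0). The upper row shows members with wild type above knockout and the lower row the reverse; the knockout libraries lie close together for Atp5f1 and Ndufb7 and far apart for Cox4i2.

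The other ATP synthase genes formed the c ring and the membrane part or were rare. The c-ring genes Atp5g1, Atp5g2 and Atp5g3, which encode the same mature protein, had log2 fold changes of -0.18, 0.22 and 0.078. Their transcript sequences were not compared and the handling of reads that match several places was not given, so their separate counts may be uncertain. The small membrane subunits Atp5j2, Atp5k and Atp5l had -0.32, -0.60 and -0.23. Of these, Atp5k, the e subunit, had 18.2, 24.0 and 13.0 against 27.5 and 28.3 CPM and groups that did not overlap, with a log2 fold change of -0.60 (standard error 0.31, edgeR adjusted p = 0.287). Atp5s and Atp5sl (RefSeq symbols Dmac2l and Dmac2) carry an old name and are not built into the enzyme. Atp5s had 7.71, 6.72 and 7.51 against 6.28 and 2.23 CPM on 7 counts in knockout 2, and Atp5sl, the least abundant member per length at 3.93 RPKM, had 9.86, 15.0 and 15.7 against 13.2 and 3.5 CPM.

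The difference varied with gene length, and most among the shortest genes. The members were short, with a median listed length of 1287 bases against 3804 bases over all genes. For the 30 members under 1000 bases the median log2 fold change was -0.27, and for the 533 other genes of that length it was -0.29. Knockout libraries lay above all wild type libraries for 14 of those 30 members (46.7%) and for 35.5% of the others. Without genes of cytosolic and mitochondrial ribosomal proteins, the median of the other short genes was -0.29. From 1000 to 2000 bases the median was -0.21 over 28 members and -0.014 over other genes, and knockout lay above wild type for 9 of the 28 (32.1%) and 20.2% of the others. From 2000 to 4000 bases the median was -0.011 over 18 members and 0.054 over other genes, and knockout lay above wild type for 22.2% and 15.7%. From 4000 to 8000 bases the median was -0.18 over 5 members and 0.014 over other genes, and knockout lay above wild type for 20% and 16.6%. Over the 81 rows the log2 fold change and log2 length had a Pearson correlation of 0.34 (Spearman 0.32), against 0.061 (Spearman 0.026) over all genes. The points share the same 5 libraries, and genes are not independent replicates. Within complexes the Pearson correlation was 0.017 over 37 rows of complex I, 0.73 over 8 of complex III (Spearman 0.83), 0.12 over 15 of complex IV and 0.34 over 17 of complex V. The length was taken as deposited, and an entry can be long for a small protein, as for Ndufb7 at 4522 bases.

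**Figure D4:**
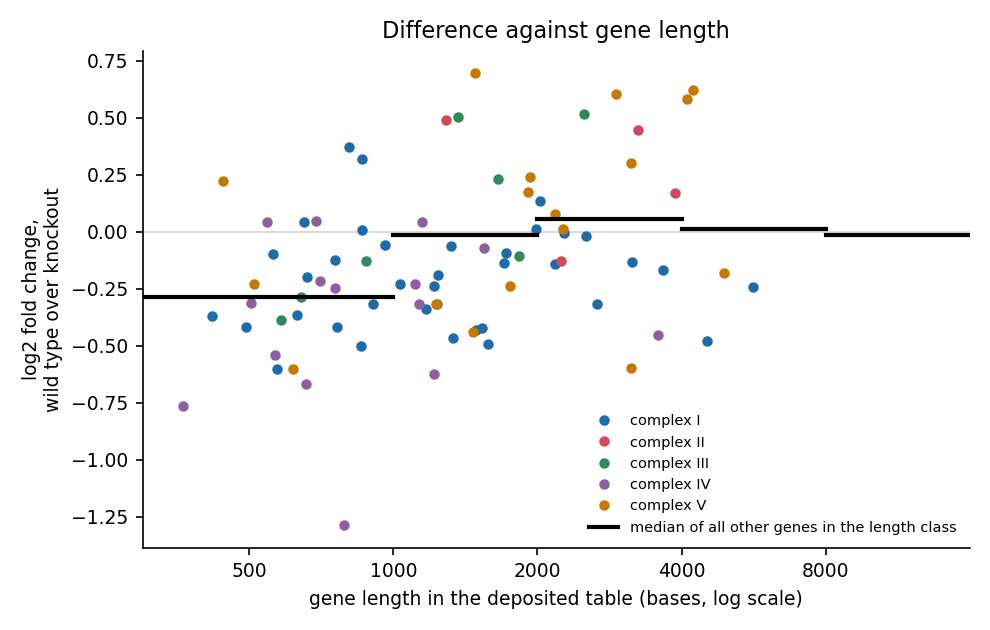
Log2 fold change (wild type over knockout) of 80 member rows against their listed gene length on a log axis, coloured by complex; black lines give the median of all other genes in 5 length classes. Members under 1000 bases centre near the line of other short genes at -0.29, and the members above 0.4 are all over 1000 bases long.

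The promoters of the members were examined for motifs of factors known to control respiratory genes, as a description of what they share. A RefSeq window (GRCm38.p6) of 250 bases before to 50 after the start was available for 67 of 80 member genes, in 73 windows. The motif of NRF1 (GCGCA, any base, then GCGC, on both strands) was in 24.7% of member windows, in 9.94% of windows of the genes tested and in 4.6% of all windows. The motif of YY1 (AAGATGGC, both strands) was in 16.4%, 4.59% and 2.75%. The ETS core bound by GABPA (CCGGAAG, both strands) was in 21.9%, 17.2% and 8.86%, and a TATA box (TATAAA, both strands) in 8.22%, 7.04% and 13.6%. No motif contains another. By complex, NRF1 was in 8 of 34 windows of complex I and 1 of 11 of complex IV, and YY1 in 7 and 0.

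Promoter bases ahead of the start are printed for Atp5b, the beta subunit on the wild type side, and for Cox5b and Uqcr11 on the knockout side, so that their letters can be set beside the values above. Each stretch meets no other RefSeq gene and was trimmed to lie outside the gene's span in the count table. Capitals mark a motif match. The stretches lie at chr10:128083057-128083272, plus strand (Atp5b), chr1:36691237-36691486, plus strand (Cox5b) and chr10:80406831-80407071, minus strand (Uqcr11).
Atp5b: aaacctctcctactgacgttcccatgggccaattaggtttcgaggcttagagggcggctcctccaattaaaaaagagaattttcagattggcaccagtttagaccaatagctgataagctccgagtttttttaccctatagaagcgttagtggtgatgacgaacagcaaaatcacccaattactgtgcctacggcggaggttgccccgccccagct
Cox5b: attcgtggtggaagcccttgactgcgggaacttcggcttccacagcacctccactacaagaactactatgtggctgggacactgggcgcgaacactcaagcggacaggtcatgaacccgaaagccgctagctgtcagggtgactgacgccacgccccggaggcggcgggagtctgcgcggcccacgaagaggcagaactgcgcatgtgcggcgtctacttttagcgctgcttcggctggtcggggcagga
Uqcr11: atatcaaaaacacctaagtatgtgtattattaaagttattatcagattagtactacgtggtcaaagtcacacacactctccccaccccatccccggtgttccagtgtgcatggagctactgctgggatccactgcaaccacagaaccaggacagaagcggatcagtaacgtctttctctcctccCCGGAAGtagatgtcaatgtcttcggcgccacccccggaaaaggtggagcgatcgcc
In these stretches Uqcr11 holds an ETS match and the other two hold none of the 4 motifs. A match is a string of letters, not a bound site, and a missing match says only that these letters are absent from the stretch.

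Genes that assemble, supply or regulate the chain were read from the same fit. Of 41 measured assembly factors, 0 were called by edgeR in either direction, where 2.05% of all genes were. At an unadjusted p under 0.05, 3 (7.32%) and 1 (2.44%) were higher in wild type and in knockout, as were 10.4% and 9.99% of all genes. DESeq2 called 1 in knockout. The smallest p values were those of Pet100, a complex IV assembly factor, with 6.54, 9.15 and 5.86 against 15.2 and 18.1 CPM and a log2 fold change of -1.21 (standard error 0.38, edgeR adjusted p = 0.0954), and of Cox11, which inserts copper, with 30.2, 32.4 and 32.9 against 18.7 and 17.5 CPM and 0.81 (standard error 0.26, edgeR adjusted p = 0.102). Of 25 measured carriers and shuttles, 1 (4%) was called by edgeR, toward wild type, where 1.05% of all genes were. DESeq2 called the same gene. At an unadjusted p under 0.05, 2 (8%) and 1 (4%) were higher in wild type and in knockout, against 10.4% and 9.99% of all genes. The called gene was Slc25a5, the ADP/ATP carrier that exchanges the product of complex V. It had 731, 564 and 774 CPM in wild type 1 to 3 and 371 and 408 CPM in knockout 1 and 2, with a log2 fold change of 0.82 (standard error 0.19, edgeR adjusted p = 0.0457). Leaving out wild type 1, wild type 3, knockout 1 or knockout 2 ended that call, with edgeR adjusted p of 0.121, 0.160, 0.131 and 0.108. RLE scaling and total counts ended it too (edgeR adjusted p = 0.0502 and 0.0554), as did the voom method of limma (limma adjusted p = 0.122). Over all alternatives the adjusted p of Slc25a5 ran from 0.00234 to 0.778. Slc25a4, its muscle form, had 484, 382 and 488 against 365 and 480.4 CPM (0.10), and Cycs, cytochrome c, 78.3, 75.4 and 83.3 against 75.0 and 69.0 CPM (0.13).

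Of 5 subunits outside the symbol pattern 0 were called by edgeR or DESeq2. Toward wild type and knockout, 1 (20%) and 1 (20%) had an unadjusted p under 0.05, against 10.4% and 9.99% of all genes. Usmg5, a small subunit of ATP synthase, had 85.2, 96.8 and 63.1 against 104 and 134 CPM (-0.54), Ndufab1, the acyl carrier protein of complex I, 50.1, 67.3 and 59.5 against 72.5 and 73.5 CPM (-0.31), and Atpif1, the inhibitor of ATP synthase, 65.9, 74.7 and 57.0 against 79.5 and 84.9 CPM (-0.32). All 3 had knockout libraries above wild type libraries. Mp68, listed as 2010107E04Rik, had 32.9, 30.5 and 22.0 against 32.8 and 44.9 CPM (-0.43). Of 18 measured regulators of mitochondrial genes 0 were called by edgeR and 1 by DESeq2. Toward wild type and knockout, 3 (16.7%) and 1 (5.56%) had an unadjusted p under 0.05, against 10.4% and 9.99% of all genes. Myc had 1179, 1333 and 972 against 682 and 819 CPM and a log2 fold change of 0.63 (standard error 0.19, edgeR adjusted p = 0.0911), and Pprc1, a coactivator related to PGC-1, had 94.9, 144 and 111 against 168 and 179 CPM and -0.58 (standard error 0.21, edgeR adjusted p = 0.137). Nrf1 (-0.091), Gabpa (-0.071) and Yy1 (-0.086), whose motifs were searched above, had groups that overlapped.

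A list of 22 genes held the tricarboxylic acid cycle, pyruvate dehydrogenase and its kinases Pdk1, Pdk2, Pdk3 and Pdk4. Of these 22, edgeR called 1 (4.55%, against 1.05% of all genes) and DESeq2 called 2, all higher in wild type. In edgeR, 4 (18.2%, Pdk4 among them) and 2 (9.09%, Pdk1 among them) had an unadjusted p under 0.05 toward wild type and knockout. These shares were 10.4% and 9.99% over all genes. The 1 called by edgeR was Idh2, the mitochondrial isocitrate dehydrogenase that makes NADPH. It had 159, 153 and 181 CPM in wild type 1 to 3 and 73.5 and 71.6 CPM in knockout 1 and 2, a mean of 164 ± 14.8 (SD, n = 3) against 72.5 ± 1.37 CPM (SD, n = 2) and a log2 fold change of 1.18 (standard error 0.19, edgeR adjusted p = 0.012). Leaving out wild type 3 ended that call (edgeR adjusted p = 0.0555), and over all alternatives the adjusted p ran from 2.19e-06 to 0.634. The list had a median log2 fold change of 0.29, and Pdhb of pyruvate dehydrogenase, the next smallest p, had 140.2, 149.8 and 180.4 against 104 and 95.1 CPM and 0.65 (standard error 0.20, edgeR adjusted p = 0.0878). Of 21 measured genes of glycolysis 0 were called by edgeR and 1 by DESeq2, with 6 (28.6%) and 4 (19.0%) at an unadjusted p under 0.05 toward wild type and knockout, against 10.4% and 9.99% of all genes, and a median log2 fold change of 0.27. Eno1 had 270.4, 237 and 303 against 131 and 183 CPM and 0.79 (standard error 0.21, edgeR adjusted p = 0.0612). Eno3, the enolase of muscle fibres, had 40.6, 43.7 and 51.1 against 52.2 and 189 CPM and -1.40 (standard error 0.36, edgeR adjusted p = 0.0612), and knockout 2 stood far above the other libraries, as it did in the summed fibre markers. Among the 7 mitochondrially encoded subunits matched by symbol, ND1 of complex I (629, 1163 and 1077 against 2366 and 2398 CPM) and COX1 of complex IV (1870.2, 3693 and 4726 against 8714 and 7519 CPM) were called by edgeR, both higher in knockout, with log2 fold changes of -1.32 (standard error 0.23, edgeR adjusted p = 0.0143) and -1.24 (standard error 0.28, edgeR adjusted p = 0.04). Leaving out wild type 1, wild type 2, knockout 1 or knockout 2 ended the call of COX1, with edgeR adjusted p of 0.0603, 0.0522, 0.0951 and 0.0681. The call of ND1 held without each library in turn. CYTB (-0.46), ND2 (-0.51) and ND4 (-0.43) also had knockout libraries above all wild type libraries. That made 5 of the 7 (71.4%), against 18.1% of all genes, and the same 5 were below 0. The 2 called were 28.6% of the 7, against 1.00% of all genes. ND6 lay on the other side, with 445, 364 and 223 against 234 and 206 CPM and a log2 fold change of 0.64 (standard error 0.25, edgeR adjusted p = 0.170), and ND5 was at 0.083, both with groups that overlapped.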

How the data were processed

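RNA bound by an antibody to Staufen1 was sequenced from 5 samples of mouse muscle stem cells. Per the labels' protocols, cDNA was primed with oligo(dT) from 100 pg of RNA, libraries were amplified over 13 to 15 cycles, and paired reads of 101 bases were taken. The tools named in the submitters' processing notes are STAR, Trim Galore, edgeR and featureCounts (Subread), with the build mm10. Their versions, the strand setting and the handling of reads that match several places were not given in the sources used here, so members with processed pseudogenes or overlapping genes (32 of 81 overlap another RefSeq gene, 18 a protein-coding one) have uncertain counts. The authors deposited raw counts per gene with a gene length.

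Counts were fitted in R 4.3.3 with edgeR 4.0.16 (filterByExpr, which removed 0 genes; TMM; two-sided quasi-likelihood F-test of genotype; Benjamini-Hochberg over 11194 genes; threshold 0.05), and the script was tested on simulated data. Log2 levels used a prior count of 2. Alternatives used DESeq2 1.42.0, limma 3.58.1, other scalings and filters, thinned counts, a replicate block and libraries left out. Depth intervals and floors cover counting error only. Members, roles and lists were chosen with earlier results of these data known, and alternatives were fixed from the labels with those results known. Subunit classes, length classes, promoter motifs and printed promoters were chosen after the values were seen. Described singly were, per complex, the 3 smallest p values and the highest and lowest RPKM, all Sdh genes, tissue isoforms, non-subunits and, from other lists, called genes and the 2 smallest p values; other genes were named after their values were seen. All 81 rows matched a RefSeq gene ID. 1 member is counted in the totals but not reported singly or drawn here.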

Additional observations from a re-analysis of the deposited data

How the results depend on the processing

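These are medians and counts of log2 fold changes, wild type over knockout. Over 14 alternative settings of the fit, 1121 of 1129 member values kept their side of the threshold and 57 of 81 members kept their sign. Counts of 0 members called in either direction held with RLE, upper-quartile and total count scaling. They also held with a mean CPM of at least 10 and under the replicate block. Other settings gave 0 too but could hardly have given more. Without a filter the fit equals the main one, and both other choices of members only drop rows from it. Thinning left 0 calls over all genes, and limma-voom made 8 and 14. The values without a filter, after thinning and with limma-voom are among the 1121. DESeq2 called 1 member higher in wild type (Atp5b) and 5 higher in knockout (Ndufa2, Cox5b, Cox4i2 and Atp5j among them). Over all genes it called 433 and 457. With 1 library left out, 0 to 1 members were called higher in wild type (Atp5b without wild type 2) and 0 to 1 higher in knockout (Cox4i2 without knockout 1).

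With 1 library left out, the median ran from -0.30 to -0.084 over all members, -0.31 to -0.15 for complex I, 0.19 to 0.39 for complex II, -0.22 to -0.010 for complex III, -0.43 to -0.19 for complex IV and 0.020 to 0.11 for complex V. The near-zero median of complex V moved by more than 0.0395, the pooled SD of its library medians within groups, from 0.078: it was 0.026 with a mean CPM of at least 10, 0.034 with total counts, 0.013 for subunits alone, -0.18 without the members that overlap another gene and -0.18 after thinning every library to the depth of knockout 2. Thinning also moved complex I to -0.34. Without overlapping members complex III was at 0.051. Fewer members enter the last alternative; the other causes were not tested.

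With the replicate number of the titles as a block, 0 members were called in either direction and the median was 0.12 for complex V. The numbers were not treated as pairs. Deviations of same-numbered libraries from their group mean correlated at 0.05 (number 1) and 0.04 (number 2) over all genes. With 2 knockout libraries the deviations of knockout 1 mirror those of knockout 2, so these values are not separate checks. They cannot decide whether the numbers are pairs. Over all genes the block raised the calls from 118 to 288 in wild type and from 112 to 324 in knockout, and thinning lowered them to 0 and 0 (edgeR; 323 and 266 at an unadjusted p under 0.05). The depth of knockout 2, at which a count of 0 allows up to 0.97 CPM, limits the rare members.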
